A study of Homo sapiens with 24 samples.

Results

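The nuclear genes of the mitochondrial electron transport chain were examined in RWPE1 cells, an immortalized, non-tumorigenic line of human prostate epithelium. The list held 49 gene symbols, those of 48 subunits of complexes I to IV and that of their regulator ESRRA, and was drawn up by name with earlier results of these data known. A probe set was a member when its annotation gave only 1 symbol and that symbol was on the list, which held for 90 of 54613 probe sets. Of these, 74 were bright enough to be among the 26000 tested, and they covered 42 genes: 25 of 28 in complex I, 3 of 4 in complex II, 4 of 6 in complex III, 9 of 10 in complex IV, and ESRRA. The 16 untested member probe sets stayed at or below 3.66 on all 24 arrays, and their genes had other probe sets that were tested. NDUFS5, NDUFS8, NDUFC2 and UQCRH had only probe sets with several symbols, and SDHB, NDUFA4 and UQCRFS1 were not analysed here.

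The study treated cultures at 60% confluence with 1,25(OH)2D, the active vitamin D hormone, at 100 nM, and kept parallel cultures in 0.1% ethanol alone as vehicle. RNA was taken after 6, 24 and 48 h, which gave 6 groups of 4 arrays. Medium was renewed at 24 h in the 48 h cultures of both treatments. The labels call the 4 samples of a group biological replicates without saying whether they were grown on separate days, so the p-values measure the spread between these samples, all from 1 cell line. Each sample was hybridized to an Affymetrix U133 Plus 2.0 array, and all levels and differences below are deposited gcRMA values on the log2 scale. The differences are averages over a culture, in which fewer cells of a type and less RNA per cell cannot be told apart.

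The chain passes electrons from NADH (complex I) or succinate (complex II) to complex III, cytochrome c and complex IV, where oxygen is reduced. Complexes I, III and IV pump protons across the inner membrane, and ATP synthase uses the gradient to make ATP. Most subunits are encoded in the nucleus, and ESRRA, an orphan nuclear receptor that works with coactivators of the PGC-1 family, is known to activate many of their genes.

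CYP24A1, the enzyme that inactivates 1,25(OH)2D and its classic target, rose at each time, by 10.08 (6 h), 6.10 (24 h) and 5.99 (48 h) (limma, adjusted p = 3.38e-08, 0.00221 and 4.66e-06). The basal keratins KRT5 and KRT14 had group means of 15.30 to 15.37 and 16.07 to 16.18, while luminal, endothelial and leukocyte markers reached at most 5.2, 4.45 and 3.82 on any array. Of 6 fibroblast and muscle markers 2 were tested, and 1, the collagen gene COL1A1, was called at 48 h (-0.60 ± 0.11, SE, limma, adjusted p = 0.0136). The summed level of the 6 on the linear scale was 1100 to 1550 in vehicle and 811 to 930 with 1,25(OH)2D at 48 h. The part of these markers in the results at 48 h was not tested.

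Arrays of 1 group differed mainly along 1 axis, a principal component computed after each group mean was subtracted, which held 71.9% of the remaining variance. The 4 arrays farthest out were vehicle 6 h replicate 1 (-0.35), vehicle 24 h replicate 1 (-0.36), and 1,25(OH)2D 24 h replicates 1 (0.41) and 4 (-0.54). The gap between the 3′ and 5′ probe sets of ACTB was 0.46 on that replicate 4 and 0.54 to 0.82 on the other arrays. The median SD of the members within a group was 0.18 (vehicle) and 0.20 (1,25(OH)2D) for the 6 h arrays, 0.16 and 0.21 for those of 24 h, and 0.071 and 0.12 for those of 48 h, so the 48 h arrays gave the most precise values.

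At 48 h the regulator ESRRA was higher with 1,25(OH)2D, by 1.59-fold and 1.45-fold on its 2 probe sets, while most subunit genes lay close to vehicle. Of the 72 subunit probe sets, 1 of COX5A and 1 of COX7B rose and 0 fell. On the brightest probe set of each gene, limma called 0 of the 41 subunits (5 at an unadjusted p under 0.05), and SAM, the tool of the study, called 1, COX5A. In all, 4 of 74 member probe sets (5.41%) were called, each of them higher, against 9.63% of all tested probe sets in either direction and 4.01% called higher. The members' share was thus near the background.

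The brighter ESRRA probe set read 9.58, 9.52, 9.61 and 9.65 on the 48 h vehicle arrays and 10.29, 10.10, 10.35 and 10.31 on the 1,25(OH)2D arrays. The difference was 0.67 ± 0.064 (SE, n = 4 and 4, limma, adjusted p = 0.000656). All treated arrays lay above all vehicle arrays. The dimmer ESRRA probe set read 6.78, 6.75, 6.98 and 6.83 in vehicle and 7.37, 7.14, 7.57 and 7.38 with 1,25(OH)2D, a difference of 0.53 ± 0.10 (SE, limma, adjusted p = 0.0123). These groups did not overlap either. In a fit of all 24 arrays the brighter probe set was called (limma, adjusted p = 0.00626) and the dimmer was not (0.0642).

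COX5A, a nuclear-encoded subunit of complex IV, had a bright and a dim probe set. The dim one read 7.51, 7.14, 7.38 and 7.43 in 48 h vehicle and 8.14, 7.62, 7.79 and 7.95 with 1,25(OH)2D, a difference of 0.51 ± 0.12 (SE, limma, adjusted p = 0.0404). The bright one read 14.41, 14.37, 14.29 and 14.31 in vehicle and 14.55, 14.46, 14.50 and 14.54 with 1,25(OH)2D, a difference of 0.17 ± 0.045 (SE, limma, adjusted p = 0.0578). Neither probe set overlapped between treatments, and the change on the bright one was the smaller. The dim COX5A probe set also differed by 0.49 ± 0.27 at 6 h and by 0.66 ± 0.17 at 24 h. Limma called neither (SE, adjusted p = 0.766 and 0.278), though the 24 h groups did not overlap. Its interaction from 6 to 48 h was 0.017 ± 0.30 (SE) and was not called, so a late effect was not established. COX7B, a small membrane subunit of the same complex, read 5.22, 5.09, 5.28 and 5.57 in vehicle and 5.80, 6.14, 5.78 and 5.69 with 1,25(OH)2D on its dim probe set, a difference of 0.56 ± 0.13 (SE, limma, adjusted p = 0.0304). Its bright probe set read 12.46, 12.54, 12.80 and 12.92 in vehicle and 12.53, 13.07, 12.63 and 12.85 with 1,25(OH)2D, and these values overlapped (difference 0.093 ± 0.14, SE, limma, adjusted p = 0.823). In the fit of all 24 arrays, which called the brighter ESRRA probe set alone among the members (background 1.73% higher), the dim probe sets of COX5A and COX7B were not called (adjusted p = 0.292 and 0.366).

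**Figure D1:**
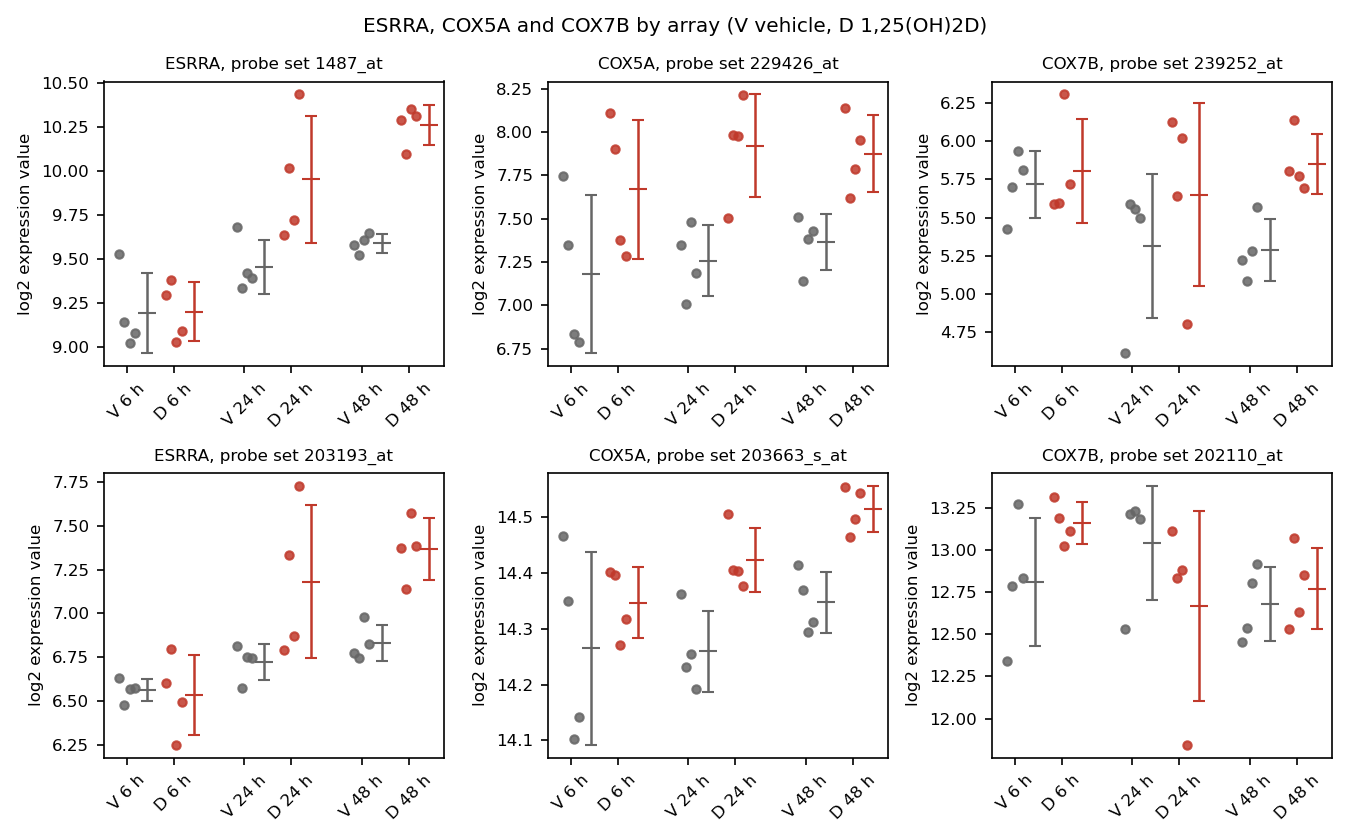
Log2 values of ESRRA, COX5A and COX7B on each of the 24 arrays, the brighter ESRRA probe set and the dim ones of COX5A and COX7B in the upper row and the other probe set of each gene below (x axis, group, with V vehicle and D 1,25(OH)2D; points are arrays, bars the mean and SD of 4). At 48 h both probe sets of ESRRA and of COX5A are apart between treatments, and the bright COX7B probe set overlaps.

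The 48 h arrays also bound the subunit changes. For each of the 41 subunit genes (brightest probe set) the 95% interval of the difference lay within 1.5-fold in either direction, as it did for 81.4% of all tested probe sets. The 41 differences ran from -0.15 to 0.21 with a median of 0.064, against -0.0090 over all tested probe sets, and 33 were above 0. In complex I the median over 25 genes was 0.055, with accessory subunits at both ends, NDUFB6 at -0.13 ± 0.053 and NDUFB3 at 0.21 ± 0.12 (SE, limma, adjusted p = 0.19 and 0.391). In complex II the flavoprotein SDHA (0.0076) and the membrane anchors SDHD (0.01) and SDHC (-0.078) lay near 0, the last with an adjusted p of 0.569 (limma). In complex III the median of 4 genes was 0.13, from UQCRB, a small subunit (-0.15), to CYC1, the heme-bearing cytochrome c1 (0.21 ± 0.10, SE, limma, adjusted p = 0.252). In complex IV all 9 genes and all 19 probe sets were above 0, with a median of 0.10 over the genes and COX5B as the largest difference (0.21 ± 0.10, SE, limma, adjusted p = 0.254).

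Single arrays set the number of calls at 48 h. Both ESRRA probe sets were called without any 1 of the 8 arrays, the dim COX5A probe set only without 1,25(OH)2D replicate 2, and the dim COX7B probe set only without that array or replicate 4 of either group. Without 1,25(OH)2D 48 h replicate 2, 16 member probe sets of 12 genes were called (21.6%), each of them higher, against 5.7% of all tested. Beside ESRRA, COX5A and COX7B these were CYC1 (0.31), COX5B (0.30), NDUFB7 (0.28), NDUFA3 (0.27), NDUFB9 (0.27), NDUFS3 (0.23), NDUFS6 (0.19), and single probe sets of COX4I1 and UQCRC2. NDUFB7, an accessory subunit of complex I, is an example. It read 12.25, 12.44, 12.28 and 12.39 in vehicle and 12.75, 11.94, 12.58 and 12.55 with 1,25(OH)2D, where replicate 2 was the lowest of the 8 arrays and the other treated arrays were the highest. Without vehicle 48 h replicate 2, the only call beside ESRRA was a dim SDHC probe set, which was lower (-0.38, limma, adjusted p = 0.0166). SAM called 5 members at 48 h, the 4 above and the bright COX5A probe set, against 13.6% of all tested.

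**Figure D2:**
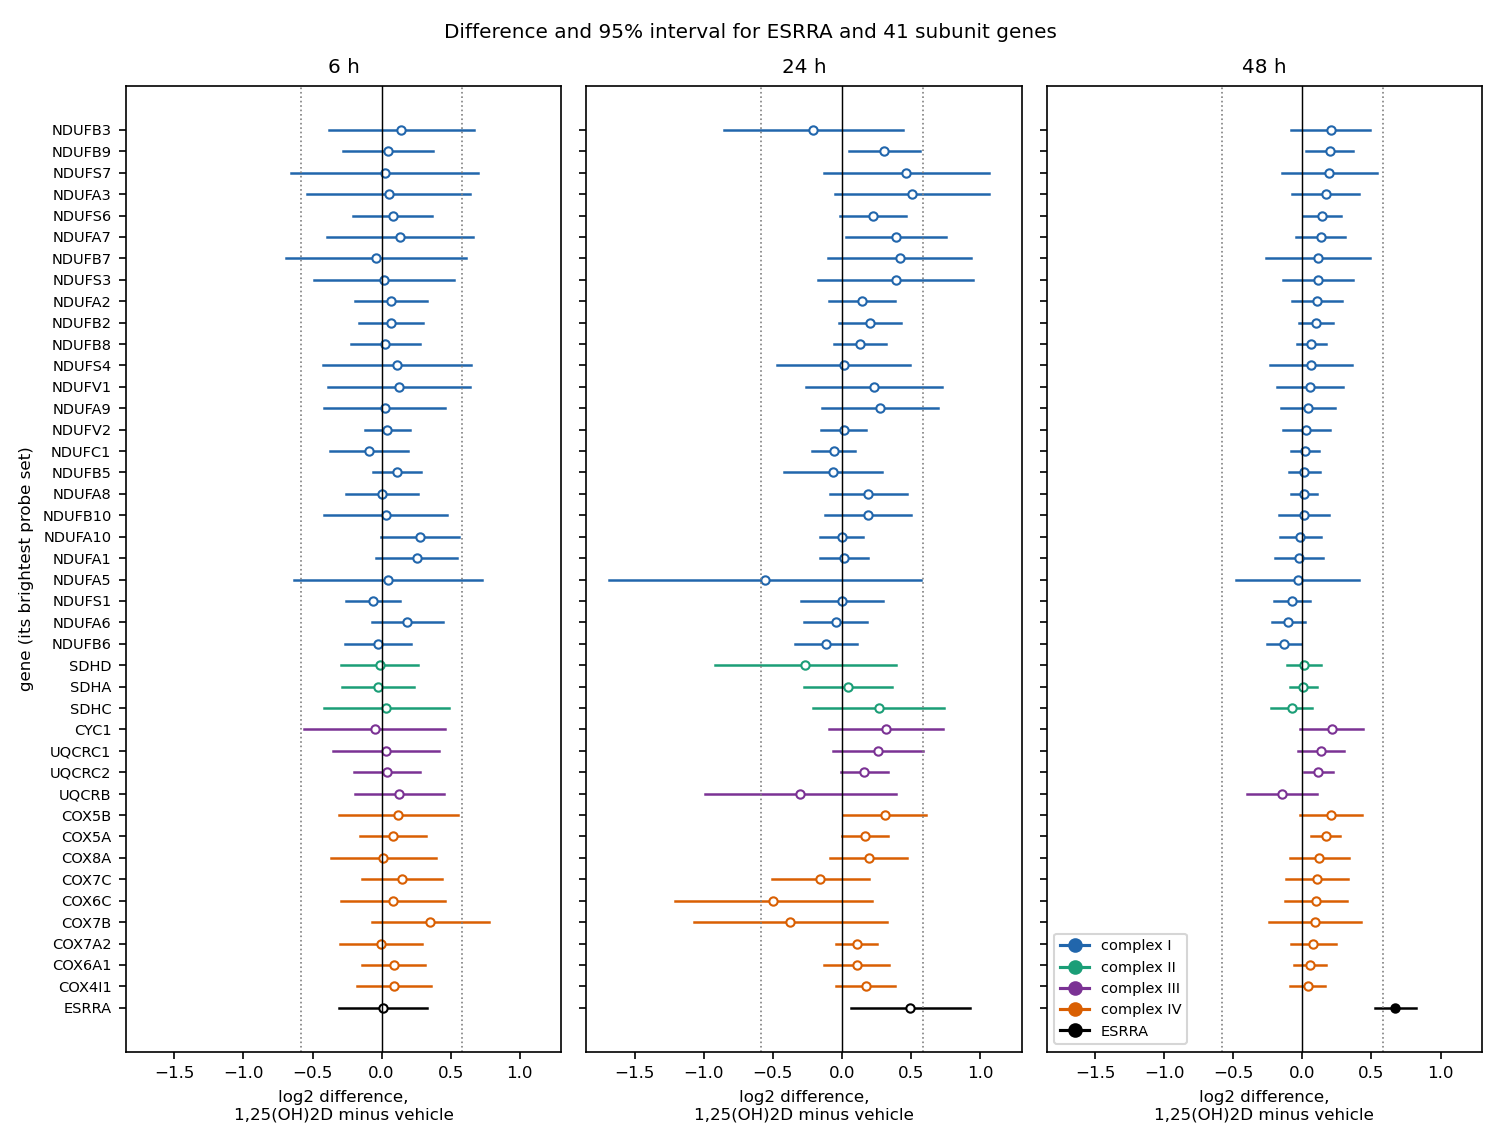
Log2 difference (1,25(OH)2D minus vehicle, x axis) and its 95% limma interval for the brightest probe set of each of 42 genes at 6, 24 and 48 h, colored by complex (filled point, adjusted p under 0.05; dotted lines, 1.5-fold). The filled point is ESRRA at 48 h, and the 41 subunit intervals at 48 h lie between the dotted lines.

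At 6 h no difference between treatments was detected in the members. Limma called 0 of 74 (0 at an unadjusted p under 0.05) and SAM 0, against 2.69% and 6.22% of all tested probe sets. ESRRA (brighter probe set) read 9.53, 9.14, 9.02 and 9.08 in vehicle and 9.30, 9.38, 9.03 and 9.09 with 1,25(OH)2D. The groups overlapped, and the 95% interval of the difference was -0.31 to 0.33. On the brightest probe set of each gene, the widest subunit differences were 0.28 ± 0.12 for NDUFA10 in complex I, 0.033 ± 0.20 for SDHC in complex II, 0.13 ± 0.14 for UQCRB in complex III and 0.35 ± 0.18 for COX7B in complex IV (SE, limma, adjusted p = 0.547, 1.0, 1.0 and 0.718). The interval lay within 1.5-fold for 32 of the 41 subunit genes.

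At 24 h ESRRA and many subunits had higher means with 1,25(OH)2D, but the arrays of each group were scattered. Limma called 0 of 74 members, against 0.354% of all tested probe sets. At an unadjusted p under 0.05 there were 10 members, all higher. The share of all tested probe sets at an unadjusted p is not given here. SAM called 7 (9.46%), each higher, against 3.06% of all tested: both probe sets of COX5A and of UQCRC2, a core protein of complex III, and 1 each of NDUFA6, NDUFB9 and COX7A2. A fit of all 24 arrays called 1, the dimmer NDUFA6 probe set (background 1.26% higher). ESRRA (brighter probe set) read 9.68, 9.34, 9.42 and 9.39 in vehicle and 9.64, 10.02, 9.72 and 10.44 with 1,25(OH)2D, a difference of 0.49 ± 0.18 (SE, limma, adjusted p = 0.512). The overlap came from replicate 1 of each group, the highest vehicle and the lowest treated array. The median difference was 0.16 over the members and 0.016 over all tested probe sets. Centring each array on its median raised these to 0.33 and 0.18, leaving the members above all probe sets by a similar amount.

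The 24 h differences followed the axis along which the arrays of a group differed. Of 29 genes with a negative weight on it, 27 were higher with 1,25(OH)2D at 24 h, and of 13 with a positive weight 11 were lower. The matching share over all tested probe sets is not given here, so these counts do not set the chain genes apart. NDUFA3, an accessory complex I subunit with a negative weight, read 12.40, 11.55, 11.80 and 11.66 in vehicle and 11.91, 12.45, 12.29 and 12.78 with 1,25(OH)2D. NDUFA5, an accessory subunit of the same complex with the most positive weight, read 8.78, 10.29, 9.73 and 10.09 in vehicle and 10.19, 9.06, 9.29 and 8.13 with 1,25(OH)2D (difference -0.56 ± 0.48, SE, limma, adjusted p = 0.602). Replicate 1 of vehicle and replicate 4 of 1,25(OH)2D were the highest of their groups for NDUFA3 and the lowest for NDUFA5. On the brightest probe set of each gene, the widest differences in the other complexes were those of SDHD (-0.27 ± 0.28), CYC1 (0.32 ± 0.18) and COX6C (-0.50 ± 0.31), with SE (limma, adjusted p = 0.623, 0.601 and 0.601). Dimmer probe sets of SDHC (-0.86 ± 0.54) and COX5B (0.77 ± 0.28) differed more and were not called (SE, limma, adjusted p = 0.601 and 0.505). At 48 h, with all arrays between -0.056 and 0.074 on the axis, 26 of the 29 genes and 8 of the 13 were above 0. The part of the axis in the 24 h differences was not tested.

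Without the 4 arrays farthest out, which leaves 3 vehicle and 2 treated arrays at 24 h, limma called 24 members. Of these 18 (24.3%, 14 genes) were higher, against 8.61% of all tested, and 6 (8.11%, 5 genes) were lower, against 12.5%. The higher ones included ESRRA (0.48), the core complex I subunits NDUFS7 (0.64) and NDUFS3 (0.53), NDUFA3 (0.70), NDUFB7 (0.57), CYC1 (0.41), UQCRC1 (0.36) and COX5B (0.35). The lower ones were NDUFA5 (-0.86), COX6C (-0.69), NDUFB3 (-0.56), UQCRB (-0.44) and COX7B (-0.35). With all 24 h arrays kept, the bright and dim COX7B probe sets had opposite signs (-0.373 and 0.335). Those of UQCRB ran from -0.305 to 0.0323. The arrays were left out for their position on the axis, not for a recorded fault. The axis came from these same values, so leaving the arrays out narrows the spread within groups and favors low p-values. The calls without these arrays are therefore no independent support for a treatment effect.

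**Figure D3:**
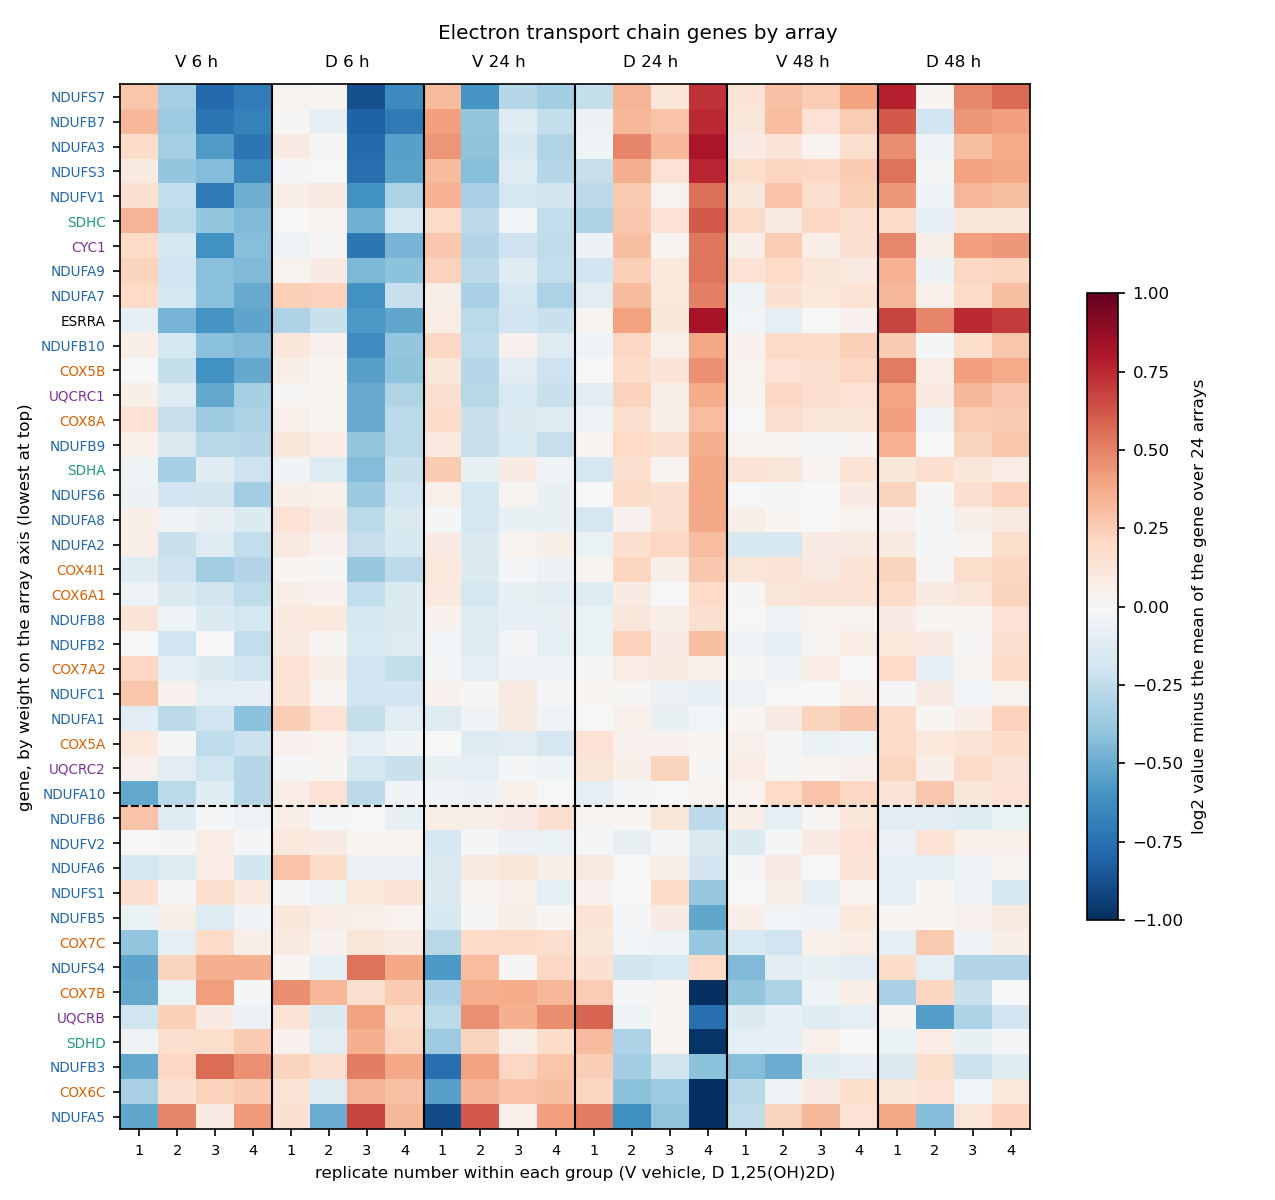
Log2 value of each of 42 genes (brightest probe set) minus its mean over the 24 arrays, genes in order of weight on the array axis (lowest weight first, dashed line at 0) and arrays in columns by group and replicate; the color scale ends at -1 and 1. Columns that are high for genes on one side of the line tend to be low on the other, most clearly in the 24 h groups, and the 48 h columns vary least.

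With 1,25(OH)2D, ESRRA rose between 6 and 24 h, as did at least 1 probe set of 6 subunit genes. In the fit of all 24 arrays 9 member probe sets (12.2%) were called, all higher, against 16.7% of all tested in either direction and 8.87% called higher. ESRRA rose by 0.75 ± 0.14 on the brighter probe set, where the groups did not overlap, and by 0.64 ± 0.15 on the dimmer, where they did (SE, limma, adjusted p = 0.00106 and 0.00762). In complex I the accessory subunits NDUFB7 (0.73 ± 0.24), NDUFA3 (0.71 ± 0.23) and NDUFS6 (0.29 ± 0.10) rose (SE, limma, adjusted p = 0.046, 0.0372 and 0.0454). NDUFS6 read 13.38, 13.37, 12.94 and 13.12 at 6 h and 13.32, 13.50, 13.47 and 13.70 at 24 h. These values overlapped, as did those of NDUFB7 and NDUFA3. NDUFA6, another accessory subunit, rose on its dimmer probe set by 0.32 ± 0.076, without overlap (SE, limma, adjusted p = 0.0071). Its brightest probe set had the opposite sign and was not called (-0.099 ± 0.089, SE, limma, adjusted p = 0.402). In complex III, UQCRC2 rose on its dimmer probe set by 0.28 ± 0.089, and in complex IV, COX4I1 rose on its brightest probe set by 0.29 ± 0.089 and on another by 0.37 ± 0.12 (SE, limma, adjusted p = 0.0359, 0.0292 and 0.0343). The brightest UQCRC2 probe set was not called (0.20 ± 0.073, SE, limma, adjusted p = 0.0605). On the brightest probe set of each gene, the widest differences of complexes II, III and IV were not called, those of SDHD -0.36 ± 0.19, CYC1 0.50 ± 0.18 and COX6C -0.57 ± 0.22 (SE, limma, adjusted p = 0.164, 0.062 and 0.0763).

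These calls depended on scaling and on single arrays. Centring the arrays on their medians moved the median of all tested probe sets from 0.030 to 0.22 and that of the members from 0.19 to 0.38, and left 3 calls, of ESRRA and NDUFA6. Without 1,25(OH)2D 24 h replicate 1, 31 members were called higher and 7 lower, against 18.4% and 20.5% of all tested. Leaving out 1,25(OH)2D 24 h replicate 2 or 4, or 6 h replicate 3 or 4, left 3 calls, of ESRRA and NDUFA6, in each case.

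In vehicle, limma called 0 of 74 members between 6 and 24 h, against 7.82% of all tested probe sets. At an unadjusted p under 0.05 there were 7 members. ESRRA (brighter probe set) differed by 0.26 ± 0.14 and NDUFA10, an accessory complex I subunit, by 0.28 ± 0.087 (SE, limma, adjusted p = 0.342 and 0.0509). On the brightest probe set of each gene, the widest in the other complexes were SDHA (0.23 ± 0.10), UQCRB (0.24 ± 0.21) and COX7B (0.23 ± 0.23), with adjusted p from 0.219 to 0.708. Between 24 and 48 h limma called 0 of 74 in vehicle and 0 of 74 with 1,25(OH)2D, against 0.315% and 1.91% of all tested probe sets. At an unadjusted p under 0.05 there were 3 and 4 members. ESRRA differed by 0.13 ± 0.14 in vehicle and by 0.31 ± 0.14 with 1,25(OH)2D (SE, limma, adjusted p = 1.0 and 0.352). On the brightest probe set of each gene, the widest subunit values in vehicle were NDUFS7 (0.50), SDHC (0.25), UQCRB (-0.36) and COX7B (-0.36). With 1,25(OH)2D they were NDUFA5 (0.59), SDHD (0.22), UQCRB (-0.21) and COX6C (0.49). A dimmer COX4I1 probe set had the lowest p of the members in both. It differed by 0.48 ± 0.16 in vehicle and by 0.56 ± 0.16 with 1,25(OH)2D (SE, limma, adjusted p = 0.274 and 0.084). Comparisons that share the 24 h arrays also share their scatter.

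Ordered by group mean, ESRRA (brighter probe set) stood at 9.20 ± 0.23 (vehicle) and 9.20 ± 0.17 (1,25(OH)2D) at 6 h, at 9.46 ± 0.15 and 9.59 ± 0.053 in vehicle at 24 and 48 h, and at 9.95 ± 0.36 and 10.26 ± 0.11 with 1,25(OH)2D at 24 and 48 h (SD, n = 4 each). Limma called 2 of these contrasts, the treatments at 48 h and 24 against 6 h with 1,25(OH)2D. It did not call the treatments at 6 or 24 h, nor vehicle at 24 against 6 h or at 48 against 24 h (limma, adjusted p = 1.0, 0.512, 0.342 and 1.0). With 1,25(OH)2D the 95% interval from 24 to 48 h, 0.013 to 0.61, lay above 0 but was not called (limma, adjusted p = 0.352). Without the 4 arrays farthest out, it was called (limma, adjusted p = 0.0335), as were the treatments at 24 h. Those arrays were picked from the same values, which narrows the spread, so these calls carry no independent weight. The complexes covered a narrower range. As the median over genes of the group mean minus the mean of all arrays, complex I stood at -0.13 in 6 h vehicle, 0.03 in 48 h vehicle and 0.089 with 1,25(OH)2D at 48 h. In the same groups complex II stood at -0.18, 0.11 and 0.087. Complex III stood at -0.18, 0.086 and 0.21, complex IV at -0.094, 0.0072 and 0.15, and ESRRA at -0.42, -0.019 and 0.65. Vehicle and treated arrays at 48 h overlapped in the median of every complex and not in ESRRA.

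**Figure D4:**
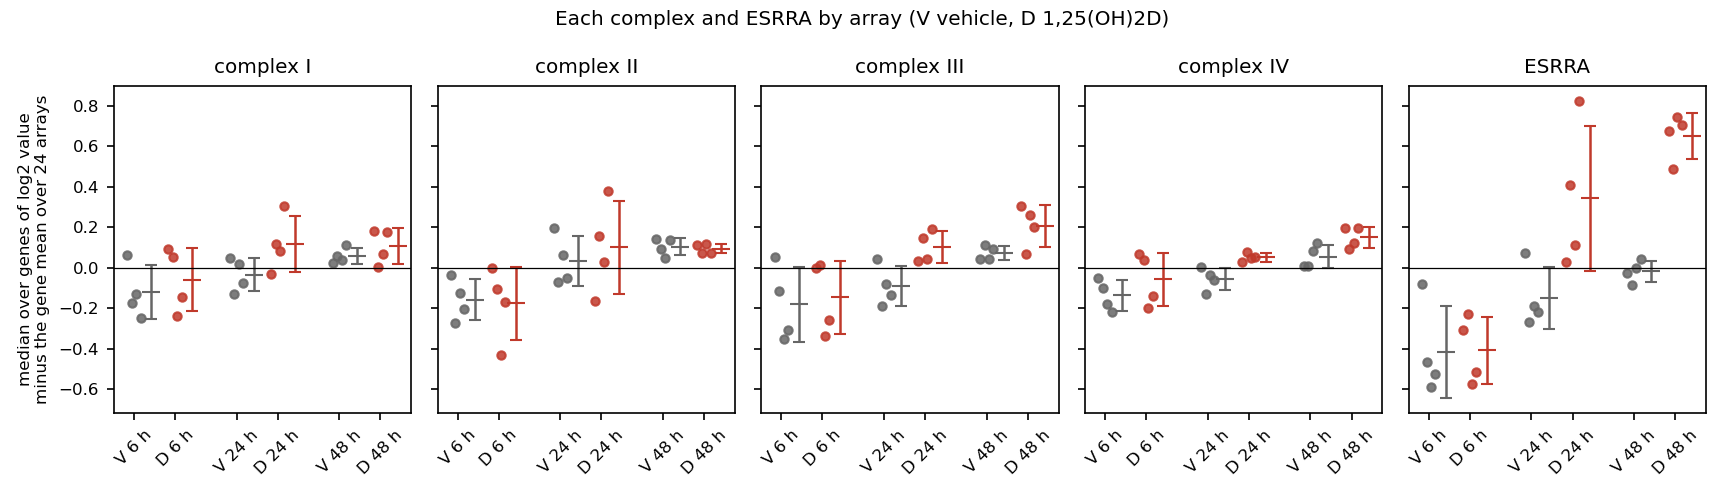
Median over the genes of each complex (25, 3, 4 and 9 genes), and ESRRA, as log2 value minus the mean over 24 arrays (y axis), by array and group (x axis; bars, mean and SD of 4 arrays). At 48 h ESRRA lies between 0.49 and 0.74 with 1,25(OH)2D and between -0.086 and 0.041 in vehicle, and the arrays of the 2 treatments overlap in each complex.

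Interaction terms asked whether the effect of 1,25(OH)2D differed between times. From 6 to 24 h, 1 of 74 members was called, the dimmer NDUFA6 probe set (0.51 ± 0.11, SE, limma, adjusted p = 0.0112; background 2.12%). It read 9.20, 9.05, 9.12 and 8.93 in vehicle and 8.91, 8.89, 8.93 and 8.84 with 1,25(OH)2D at 6 h, then 8.82, 8.94, 8.89 and 8.89 and 9.03, 9.13, 9.38 and 9.30 at 24 h. At 24 h all treated arrays lay above all vehicle arrays, and at 6 h the groups overlapped with the treated arrays at the low end. Centring the arrays on their medians ended this call. The brighter NDUFA6 probe set had an interaction of the opposite sign (-0.23 ± 0.12, SE, limma, adjusted p = 0.476). From 6 to 48 h limma called 0 of 74, against 2.8% of all tested probe sets. At an unadjusted p under 0.05 there were 6 members. For ESRRA (brighter probe set) the terms were 0.49 ± 0.20 at 24 h and 0.66 ± 0.20 at 48 h (SE, limma, adjusted p = 0.32 and 0.0964), so a larger effect at 48 h than at 6 h was not established. On the brightest probe set of each gene, the widest subunit terms from 6 to 24 h were NDUFA5 (-0.60), SDHD (-0.25), UQCRB (-0.43) and COX7B (-0.72). From 6 to 48 h they were NDUFA10 (-0.29), SDHC (-0.11), UQCRB (-0.28) and COX7B (-0.26), and none of these terms was called.

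Of 19 genes with several tested probe sets, 13 had the same sign on all of them at 48 h, and NDUFS1, NDUFA2, NDUFA6, NDUFA7, NDUFA10 and UQCRB did not. Of the 74 member probe sets, 19 carry the suffix s_at, for probes shared between transcripts, and 10 the suffix x_at, for probes that may match other sequences. The brightest probe sets of COX4I1, COX7C, SDHA and SDHC carry x_at, so their values may include related sequences.

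Promoter sequence is shown for ESRRA, for NDUFS6 and NDUFB7, which rose between 6 and 24 h with 1,25(OH)2D, and for COX5A, whose probe set rose at 48 h. Each run is the 250 bases before the annotated start in RefSeq (GRCh38.p14), 5′ to 3′ on the strand of the gene. They lie at chr11:64305274-64305523 (plus strand), chr5:1801157-1801406 (plus strand), chr19:14572067-14572316 (minus strand) and chr15:74938074-74938323 (minus strand). Capitals mark the motif letters described after them.
ESRRA: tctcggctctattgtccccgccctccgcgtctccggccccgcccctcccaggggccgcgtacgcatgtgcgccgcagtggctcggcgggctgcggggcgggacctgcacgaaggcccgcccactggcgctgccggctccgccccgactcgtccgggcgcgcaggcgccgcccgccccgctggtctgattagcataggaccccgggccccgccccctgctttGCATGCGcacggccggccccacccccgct
NDUFS6: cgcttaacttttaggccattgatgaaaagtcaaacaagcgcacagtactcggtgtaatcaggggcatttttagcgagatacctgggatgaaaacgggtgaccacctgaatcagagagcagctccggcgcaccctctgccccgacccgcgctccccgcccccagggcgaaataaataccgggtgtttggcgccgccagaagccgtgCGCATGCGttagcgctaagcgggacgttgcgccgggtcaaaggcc
NDUFB7: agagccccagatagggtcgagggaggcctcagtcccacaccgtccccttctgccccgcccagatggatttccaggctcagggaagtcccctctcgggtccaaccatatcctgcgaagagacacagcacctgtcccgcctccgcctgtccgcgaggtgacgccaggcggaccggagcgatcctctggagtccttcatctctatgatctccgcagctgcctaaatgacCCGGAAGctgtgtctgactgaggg
COX5A: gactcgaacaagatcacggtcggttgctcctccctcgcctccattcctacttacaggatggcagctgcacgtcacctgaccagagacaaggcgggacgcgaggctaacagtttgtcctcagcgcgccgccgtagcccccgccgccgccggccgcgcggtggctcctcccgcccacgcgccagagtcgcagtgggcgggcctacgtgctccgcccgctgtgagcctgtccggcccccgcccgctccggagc

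The letters searched on both strands were TCAAGGTCA and the AAGGTCA it contains for ERR receptors such as ESRRA, GCATGCG for NRF1, CCGGAAG for GABP and AAGATGGC for YY1, factors known to act on nuclear genes for mitochondrial proteins. Of the 49 listed genes 40 had an entry among the 27305 promoters of the RefSeq table. GABP letters stood in 10 of the 40 (25%) and in 8.82% of all promoters, NDUFB7, NDUFS3 and COX5B among them. NRF1 letters stood in 8 (20%) and in 3.57% of all, with ESRRA itself, NDUFS6, NDUFS7, NDUFA6 and COX5B. The shorter ERR letters stood in NDUFA5, NDUFS7 and SDHB (7.5%, against 3.46% of all), the longer in 0 of 40 (0.319% of all) and those of YY1 in 0 of 40 (1.37%). The COX5A run held none of the letters. A match describes the sequence and is no evidence of binding.

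At 48 h, calls among regulators and assembly factors of the chain were near the share over all tested probe sets, 9.63%. Of 11 tested regulators limma called 1, PPARGC1B, a PGC-1 family coactivator of ESRRA, which rose by 0.71 ± 0.17 from a mean of 6.25 to 6.97 (SE, limma, adjusted p = 0.0382). At 6 h its means were 6.92 in vehicle and 6.35 with 1,25(OH)2D, and the effect differed between 6 and 48 h (1.28 ± 0.20, SE, limma, adjusted p = 0.00059). PPARGC1A, ESRRB and ESRRG were below the filter on low values. NRF1 (-0.12), GABPA (-0.10) and TFAM, which packages mitochondrial DNA (-0.23), were not called at 48 h (limma, adjusted p = 0.556, 0.836 and 0.295). At 6 h, with a background of 2.69%, limma called 1 of the 11, the related coactivator PPRC1, which fell (-0.41 ± 0.081, SE, limma, adjusted p = 0.0406).

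Among assembly factors at 48 h, limma called 2 of 13 for complex I, 1 of 10 for complexes II and III and 2 of 21 for complex IV, against 9.63% of all tested probe sets. NDUFAF4 (0.52 ± 0.079) of complex I, UQCC1 (0.33 ± 0.047) of complex III, and PET117 (0.39 ± 0.059) and COA4 (0.39 ± 0.056) of complex IV rose (SE, limma, adjusted p = 0.00607, 0.00452, 0.00552 and 0.00494), and NDUFAF1 of complex I fell (-0.22 ± 0.046, adjusted p = 0.0218). In vehicle 3 of 13, 0 of 10 and 2 of 21 were called between 6 and 24 h (background 7.82%), and NDUFAF4 (-0.62), PET117 (-0.60), COA7 (-0.67), NDUFAF2 (-0.45) and NDUFAF6 (-0.44) fell. At 6 h COA7, of complex IV, fell with 1,25(OH)2D (-0.46 ± 0.078, SE, limma, adjusted p = 0.0182). The 1,25(OH)2D effect differed between 6 and 48 h for NDUFAF4 (0.68), PET117 (0.78) and COA7 (0.58), and between 6 and 24 h for COA7 (0.87; limma, adjusted p = 0.0193, 0.004, 0.0118 and 0.000252).

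The remaining lists of chain genes held few calls between treatments. Limma called 0 of 7 tested subunits encoded by mitochondrial DNA in any comparison, with 0 at an unadjusted p under 0.05 and 0 by SAM at 6, 24 and 48 h, and their median difference was 0.079 at 48 h and -0.20 at 24 h. It called 0 of 15 tested ATP synthase genes at 6, 24 or 48 h (0, 0 and 1 at an unadjusted p under 0.05; 0, 3 and 1 by SAM). Over all tested probe sets SAM called 6.22% at 6 h and 13.6% at 48 h in either direction, and 3.06% higher at 24 h. The directions of these SAM calls in ATP synthase are not given here. Of the nuclear subunits outside the list, 0 of 8 in complex I, 0 of 4 in complex III with cytochrome c and 0 of 2 in complex IV were called at 48 h (1, 1 and 0 at an unadjusted p under 0.05; 1, 1 and 0 by SAM). The shares over all tested probe sets at 48 h were 9.63% by limma and 13.6% by SAM. With 1,25(OH)2D between 6 and 24 h, when 16.7% of all tested probe sets were called and 8.87% were called higher, limma called 3 of 15 ATP synthase genes, 1 of the 4 in complex III and 1 of the 2 in complex IV. ATP5F1D (0.73), ATP5MC1 (0.56) and ATP5F1B (0.25) of ATP synthase rose, as did UQCR11 (0.36) of complex III and COX6B1 (0.39) of complex IV (limma, adjusted p = 0.0417, 0.0496, 0.0452, 0.0311 and 0.0344). In that interval 1 of 13 assembly factors for complex I, 3 of 10 for complexes II and III, 1 of 21 for complex IV and 3 of 11 regulators were called. The assembly factors ECSIT (0.94), SDHAF1 (0.93), SDHAF4 (0.43), UQCC2 (0.38) and COX10 (0.27) and the regulator TFB1M (0.40) rose, and the regulators GABPB1 (-0.93) and NRIP1 (-2.42) fell.

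Of 12 tested genes of the tricarboxylic acid cycle list limma called 1 at 48 h (background 9.63%), IDH2, the NADP-dependent mitochondrial isocitrate dehydrogenase, which rose by 0.88 ± 0.14 from a mean of 11.85 to 12.74 (SE, limma, adjusted p = 0.0064). Between 6 and 24 h with 1,25(OH)2D, 3 of the 12 were called (background 16.7%), and IDH2 (0.89), DLST (0.46) and SUCLG1 (0.34) rose (limma, adjusted p = 0.00385, 0.0343 and 0.0377).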

How the data were processed

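RNA of 24 RWPE1 cultures was measured on Affymetrix U133 Plus 2.0 arrays, 4 for each of 6 treatment and time groups. The log2 expression values deposited by the authors, 1 for each probe set and array, came from a single gcRMA run over the 24 arrays. The settings of gcRMA are not given in the sources used here. Arrays have no read depth, and their number limits the precision.

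Probe sets were named from the platform annotation, and those with several symbols were left out of the members. The 62 control probe sets were removed, and 26000 were tested, those that reached 3.203 or more on at least 3 of the 4 arrays of some group. Treatments were compared within each time on 8 arrays, and times and interactions in 1 fit of all 24 arrays, with limma 3.58.1 in R 4.3.3 and a Benjamini-Hochberg adjusted p under 0.05 over all tested probe sets. The fits within each time were tested on simulated arrays whose scatter was independent between probe sets. The shared axis of the real arrays and the fits over time and of interactions were not simulated. SAM, the method of the study, was re-implemented in R 4.3.3 with all 70 relabellings. A gene was represented by its brightest tested probe set. Alternatives were the filter, a second quantile normalization, centring, the replicate number as a block, other eBayes settings, a fit of all arrays, SAM, and leaving out arrays. For each comparison all called members were named, then the widest difference of each complex and ESRRA, and up to 4 called genes of each other list. The members and lists were chosen with earlier results of these data known.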

Additional observations from a re-analysis of the deposited data

Results flagged for a closer look

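Over 288 groups of 4 values (48 probe sets, 1 for each gene and those named), 13 had an array standing apart from the other 3 by Dixon's ratio test, and chance gives about 1 in 20 groups. Vehicle 24 h replicate 1 gave 6 low values and 1 high one. It read 12.48 for COX6C (nearest other array 13.31), 12.53 for the bright COX7B probe set (13.18), 4.614 for the dim one (5.495), 13.69 for COX7C (14.13), 9.676 for NDUFB3 (10.64) and 12.4 for UQCRB (13.03). It read 13.82 for CYC1, the highest of its group (13.34). Vehicle 6 h replicate 1 was low for COX6C (12.7, nearest 13.18) and NDUFS4 (10.38, nearest 11.14). Both arrays are among the 4 farthest out on the axis along which arrays of a group differed.

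At 48 h, vehicle replicate 1 was low for COX6A1 (14.25, nearest 14.36) and NDUFS4 (10.47, nearest 10.81), vehicle replicate 3 for SDHA (11.61, nearest 11.7), and 1,25(OH)2D replicate 2 for CYC1 (13.62, nearest 13.96). The effect of 1,25(OH)2D on the dimmer NDUFA6 probe set differed between 6 and 24 h by an interaction term of 0.508 (limma, adjusted p = 0.0112).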

How the results depend on the processing

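Of the recomputed counts of called members, 125 stayed within 1.5 times the reported count and 31 did not, and among values of single probe sets 407 kept their side of the threshold, 61 lost it and 3 gained it. Signs changed in 7 of the 407, none of them called. Among the medians over the members, which have no test, 7 changed sign: 2 at 6 h (lowest -0.0070), 2 with 1,25(OH)2D from 24 to 48 h (lowest -0.097) and 3 for the interaction from 6 to 48 h (lowest -0.027). Without the 4 arrays farthest out, limma called 24 members at 24 h, against 8.61% of all tested called higher and 12.5% lower. For changes over time it called 3 in vehicle and 3 with 1,25(OH)2D from 24 to 48 h. With 1,25(OH)2D from 6 to 24 h it called 15 (13 higher, 2 lower), with interactions of 2 from 6 to 24 h and 1 from 6 to 48 h. The shares over all tested probe sets for these changes over time are not given here, so the counts do not set the chain genes apart. The fit of all 24 arrays called 1 member at 24 h and 1 at 48 h, and SAM called 7 at 24 h. All of these were higher, against 1.26%, 1.73% and 3.06% of all tested called higher. Vehicle from 6 to 24 h gave 1 call under a second quantile normalization and 1 under other eBayes settings. With 1,25(OH)2D from 6 to 24 h there were 5 calls without the filter and 3 after centring, which also left 0 interactions from 6 to 24 h. Leaving out 1 array at a time gave 0 to 0 calls at 6 and at 24 h, 2 to 16 at 48 h, 0 to 1 and 0 to 0 in vehicle from 6 to 24 and 24 to 48 h, 3 to 38 and 0 to 1 with 1,25(OH)2D, and 1 to 1 and 0 to 0 for the interactions. The shares over all tested probe sets beside the counts of 16 and 38 stand in the Results, and those of the other fits are not given here. Centring moved the share of higher calls over all tested probe sets from 51.1% to 40.8% in vehicle from 6 to 24 h, from 47.6% to 27.0% in vehicle from 24 to 48 h and from 29.4% to 12.0% with 1,25(OH)2D from 24 to 48 h. The cause of these changes was not tested.

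The labels do not say whether replicate numbers pair the samples. Deviations from the group mean correlated between same-numbered vehicle and treated arrays by -0.366 to 0.756 at 6 h. The range was -0.889 to 0.352 at 24 h and -0.118 to -0.00892 at 48 h. These correlations cannot decide on pairing, since the deviations sum to 0 within a group and lie mostly along 1 axis. With the replicate number as a block limma called 1 member at 6 h (COX5A), 0 at 24 h and 4 at 48 h, where COX4I1 took the place of COX7B, and 8 with 1,25(OH)2D from 6 to 24 h. The shares over all tested probe sets in these block fits are not given here.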
